A study of Homo sapiens with 43 samples.

Results

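The Kruppel-like factors are a family of transcription factors, and 7 of them were followed here through 43 RNA sequencing libraries of HMC3 cells: KLF2, KLF4, KLF6, KLF9, KLF10, KLF11 and KLF13. The genes were taken as a fixed list of names, not by a threshold on measured values. The list was written with earlier results of these data known. It holds 7 of the 13 Kruppel-like factor genes among the 20052 genes in the count table. All 7 passed the filter on low counts, which 16816 genes passed. HMC3 is an immortalised human line labelled as microglial, grown in flasks. Flasks held dexamethasone at 1 or 0.01 µM, hydrocortisone at 10 or 0.01 µM, the ethanol vehicle of each of these 4 doses, or untreated medium. Cells were collected on day 3 of exposure, and those returned to normal medium on day 3 were collected on day 6, after washout. Each hormone dose had 3 libraries on each day, each vehicle had 3 on day 3 and 1 on day 6, and medium had 3 on day 3. Dexamethasone is a synthetic glucocorticoid and hydrocortisone is the natural human one, and both act through the glucocorticoid receptor. The labels tie each pellet to a flask of its own but name no separate cultures behind the flasks, and the p-values speak only of spread among libraries.

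The genes lie on 6 chromosomes of GRCh38 in GENCODE release 29. KLF2 (ENSG00000127528) lies at chr19:16324817-16327874, plus strand. KLF4 (ENSG00000136826) lies at chr9:107484852-107490482 and KLF9 (ENSG00000119138) at chr9:70384597-70414624, both on the minus strand. KLF6 (ENSG00000067082) lies at chr10:3775996-3785281 and KLF10 (ENSG00000155090) at chr8:102648779-102655902, also on the minus strand. KLF11 (ENSG00000172059) lies at chr2:10042849-10054836 and KLF13 (ENSG00000169926) at chr15:31326855-31435665, both on the plus strand. KLF11 and KLF13 each overlap 1 further annotated gene that has no row in the count table, and the sources used here do not give how the counting treated strand. All counts are sums over a gene's exons.

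Kruppel-like factors bind GC-rich and CACCC sequences through zinc fingers at their C-terminal end, the same kind of site that the related SP factors use, and the parts outside the fingers decide whether a member activates or represses. KLF9 and KLF13 are short repressors that recruit the SIN3A corepressor, and KLF9 is a direct target of the glucocorticoid receptor in many tissues. KLF10 and KLF11 were first described as early genes of TGF-beta signalling and also recruit SIN3A. KLF2 and KLF4 quiet inflammatory genes in endothelial cells and macrophages, are induced through the kinase ERK5 and its partner MEF2, and KLF4 is also one of the reprogramming factors. KLF6 is an injury-induced activator with many targets in TGF-beta signalling and in the cell cycle.

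The promoter windows of 3 members are shown, because KLF9 and KLF13 carried the clearest changes below and KLF2 carried none. Each holds the 250 bases before the RefSeq start site (GRCh38.p14), written along the gene's own strand. Capitals mark the GC box (GGGCGG or its reverse complement CCGCCC) and the CACCC box (CACCC or GGGTG).
KLF9: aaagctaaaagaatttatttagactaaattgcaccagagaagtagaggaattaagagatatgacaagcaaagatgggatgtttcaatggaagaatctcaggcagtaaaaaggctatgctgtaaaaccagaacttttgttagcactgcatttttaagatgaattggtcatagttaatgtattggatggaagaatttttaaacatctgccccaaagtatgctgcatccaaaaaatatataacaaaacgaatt
KLF13: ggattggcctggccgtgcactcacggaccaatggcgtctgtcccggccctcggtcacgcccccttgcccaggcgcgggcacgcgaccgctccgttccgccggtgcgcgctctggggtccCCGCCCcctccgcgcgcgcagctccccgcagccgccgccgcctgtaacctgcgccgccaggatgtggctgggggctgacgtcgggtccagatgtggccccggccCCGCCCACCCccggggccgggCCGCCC
KLF2: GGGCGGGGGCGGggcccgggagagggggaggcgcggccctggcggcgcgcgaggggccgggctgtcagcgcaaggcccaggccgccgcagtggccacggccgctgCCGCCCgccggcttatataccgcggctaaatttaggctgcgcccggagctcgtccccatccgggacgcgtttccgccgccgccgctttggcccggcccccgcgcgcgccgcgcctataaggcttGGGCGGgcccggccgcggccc
The KLF9 window is chr9:70414658-70414907 on the minus strand, the KLF13 window chr15:31326585-31326834 on the plus strand and the KLF2 window chr19:16324576-16324825 on the plus strand. The KLF9 window stands apart from the others: its G+C content is 32.4%, and 2.92% of the 35116 RefSeq promoter windows have less, against a median of 58.0%. It holds no GC box and no CACCC box and has 2 CCAAT boxes (CCAAT on either strand). The KLF13 window has a G+C content of 78.8%, with 3 GC boxes and 1 CACCC box, which overlaps a GC box in the run CCGCCCACCC. KLF13 also has 2 CCAAT boxes. The KLF2 window has a G+C content of 80.0% and 4 GC boxes, of which the first 2 stand next to each other at its upstream end. Of all windows, 42.6% hold a GC box, 54.7% a CACCC box and 32.0% a CCAAT box. The steroid receptor half-site TGTTCT (12.4% of windows) and the receptor palindrome (GNACA and TGTNC with 3 bases between them, 0.327% of windows), each searched on both strands, were in none of the windows of the 6 members that had one. These matches describe letters within 250 bases and nothing beyond them.

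Library totals ran between 7638840 and 24426643 counts, of which ribosomal RNA genes made up 9.90% to 94.9% (median 29.3%). In 7 libraries of 7 groups the share was above 75%, and the libraries held between 1083399 and 17542039 other counts. Levels are in CPM, a gene's count relative to its library's TMM-scaled total. The hormones' textbook targets TSC22D3 and FKBP5 were measured as a check on day 3. TSC22D3 had log2 changes of 3.99 with dexamethasone 1 µM, 3.05 with dexamethasone 0.01 µM, 3.26 with hydrocortisone 10 µM and 0.11 with hydrocortisone 0.01 µM. FKBP5 had 1.44, 1.23, 1.22 and −0.11 in the same order. Of 13 microglia and macrophage markers, 5 had a row in the table; MERTK had a median of 4.81 CPM, CSF1R had a median of 0.146 CPM and TREM2 of 0.136 CPM. Fibroblast and pericyte markers summed to 2262 to 3191 CPM in the hormone libraries of day 3, against 2367 to 2992 CPM in the vehicle libraries. Endothelial markers, 6 of 8 of which had a row, summed to 0.981 to 2.61 CPM in hormone libraries, against 1.09 to 3.04 CPM in vehicle libraries. None of 6 lymphocyte markers had a row. Epithelial markers, most of them KRT18 and KRT8 reads, summed to 76.7 to 209 CPM in hormone libraries, against 182 to 237 CPM in vehicle libraries, and the part of these shifts in the results below was not tested. In bulk RNA, fewer cells of a kind and less RNA per cell cannot be told apart.

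Per kilobase of exon, KLF10 and KLF6 had the highest medians and KLF4 the lowest. In the 12 vehicle libraries of day 3 the median level was 8.89 CPM per kb for KLF10, 5.75 for KLF6, 1.80 for KLF2, 1.26 for KLF11, 0.785 for KLF13, 0.642 for KLF9 and 0.395 for KLF4. The ranges of KLF10 (5.35 to 14.1 CPM per kb) and KLF6 (4.04 to 7.33 CPM per kb) overlapped. Within each of the 12 libraries, however, KLF10 stood above KLF6. KLF13 (0.574 to 0.989 CPM per kb) and KLF9 (0.509 to 0.881 CPM per kb) overlapped too, and both overlapped the range of KLF4 (0.222 to 0.779 CPM per kb). KLF13 stood above KLF9 in all of these libraries except replicate 1 of the dexamethasone 0.01 µM vehicle (0.574 against 0.881 CPM per kb). The ranges of KLF2 (1.03 to 2.78 CPM per kb) and KLF11 (0.770 to 1.60 CPM per kb) overlapped as well. KLF4 reads were few: its level across all 43 libraries was 0 to 2.85 CPM, and the counts behind it are given with its result.

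**Figure D1:**
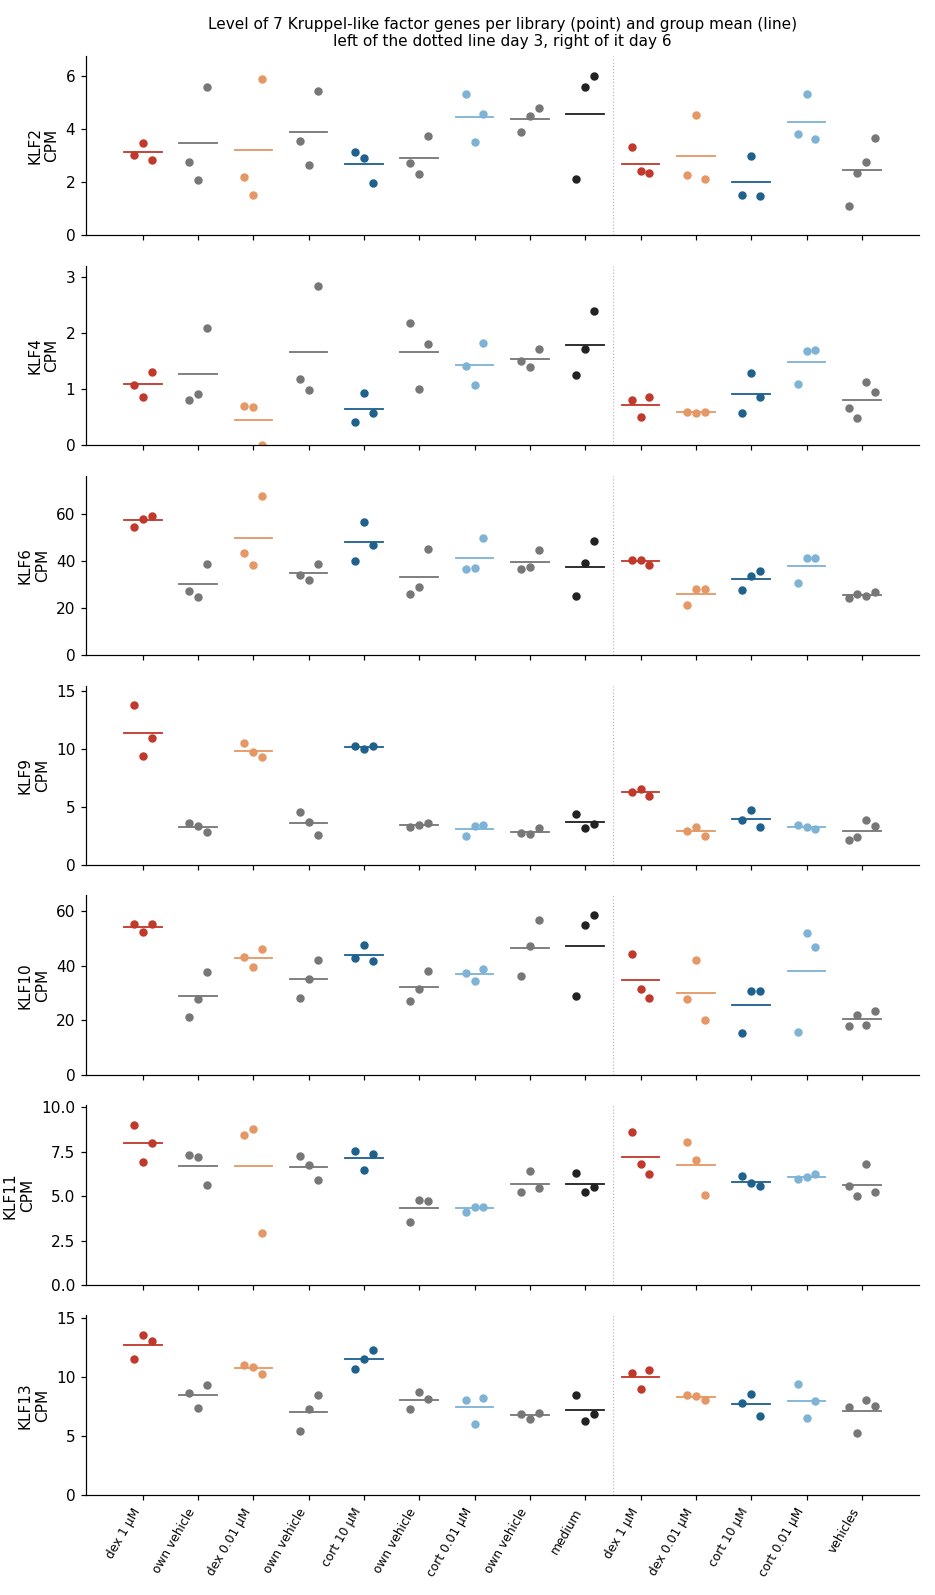
Level of each member in every library, in CPM on the vertical axis, by group on the horizontal axis; points are libraries and bars are group means. KLF9 stands at 9.32 to 13.8 CPM in the 9 libraries of dexamethasone 1 µM, dexamethasone 0.01 µM and hydrocortisone 10 µM on day 3, above all other libraries, whose highest value is 6.54 CPM.

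On day 3 each hormone dose was set against its own vehicle, and a gene passed where its adjusted p in edgeR's quasi-likelihood test was below 0.05. Of the 7 members, 4 (KLF6, KLF9, KLF10 and KLF13) rose and 0 fell with dexamethasone 1 µM, where 22.6% of the genes tested passed in either direction and 10.3% were higher and 12.3% lower. With dexamethasone 0.01 µM 2 (KLF9 and KLF13) rose and 1 (KLF4) fell, where 14% of all genes passed, 6.15% higher and 7.84% lower. With hydrocortisone 10 µM 3 (KLF9, KLF11 and KLF13) rose and 1 (KLF4) fell, where 13.1% of all genes passed, 5.58% higher and 7.5% lower. With hydrocortisone 0.01 µM 0 members passed in edgeR or in DESeq2 and 1, KLF11, had an unadjusted p below 0.05; 0% of all genes passed.

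KLF9, the repressor known as a glucocorticoid receptor target, was higher in 3 of the 4 hormone treatments on day 3. It had 13.8, 9.43 and 10.96 CPM with dexamethasone 1 µM, against 3.66, 3.38 and 2.89 CPM in that dose's vehicle. The groups did not overlap, and the fitted difference was 3.44-fold (log2 change 1.78, SE 0.17, adjusted p = 2.86e-11). With dexamethasone 0.01 µM it had 10.5, 9.79 and 9.32 CPM, against 4.56, 3.74 and 2.63 CPM in the vehicle (2.73-fold higher with the hormone; log2 change 1.45, SE 0.17, adjusted p = 1.37e-08). With hydrocortisone 10 µM it had 10.3, 10.01 and 10.3 CPM, against 3.26, 3.49 and 3.63 CPM in the vehicle (2.94-fold higher with the hormone; log2 change 1.56, SE 0.17, adjusted p = 1.88e-09). In each of these 3 comparisons every hormone library stood above every vehicle library. With hydrocortisone 0.01 µM KLF9 had 2.498, 3.38 and 3.51 CPM, against 2.78, 2.74 and 3.205 CPM in the vehicle. Here the groups overlapped, and the difference was 0.11 (95% interval −0.23 to 0.44) on the log2 scale. Ordered by group mean, KLF9 stood at 11.4 ± 2.21 CPM (SD, n = 3) with dexamethasone 1 µM, 10.2 ± 0.164 with hydrocortisone 10 µM and 9.89 ± 0.617 with dexamethasone 0.01 µM; these 3 neighbours lay within the spread of the first.

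KLF13, the other SIN3A-recruiting repressor of this pair, passed in the same 3 treatments, with smaller fitted factors. It had 11.6, 13.5 and 13.05 CPM with dexamethasone 1 µM, against 8.63, 7.43 and 9.302 CPM in the vehicle (1.505-fold; log2 change 0.59, SE 0.14, adjusted p = 0.00137). It had 11.1, 10.9 and 10.3 CPM with dexamethasone 0.01 µM, against 5.402, 7.28 and 8.46 CPM in the vehicle (1.52-fold; log2 change 0.61, SE 0.14, adjusted p = 0.00185). It had 10.7, 11.5 and 12.3 CPM with hydrocortisone 10 µM, against 7.34, 8.72 and 8.14 CPM in the vehicle (1.42-fold; log2 change 0.51, SE 0.14, adjusted p = 0.00992). No hormone library overlapped its vehicles in these 3 comparisons. KLF13 had 8.04, 6.04 and 8.28 CPM with hydrocortisone 0.01 µM, against 6.897, 6.42 and 7.003 CPM in the vehicle, a log2 difference of 0.14 (95% interval −0.14 to 0.42). The call with hydrocortisone 10 µM was lost without hormone replicate 4 (0.46, adjusted p = 0.0593) or vehicle replicate 1 (0.45, adjusted p = 0.0639), and that with dexamethasone 0.01 µM when only its own 6 libraries were fitted (0.60, adjusted p = 0.084).

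KLF10 and KLF11, the TGF-beta-inducible repressors, each passed in 1 of the 4 treatments of day 3, KLF10 with dexamethasone 1 µM and KLF11 with hydrocortisone 10 µM. KLF10 had 55.00, 52.3 and 55.3 CPM with dexamethasone 1 µM, against 21.4, 27.8 and 37.5 CPM in the vehicle (1.87-fold; log2 change 0.91, SE 0.32, adjusted p = 0.0438). These groups did not overlap, but the medium libraries had 28.8, 54.7 and 58.3 CPM and 2 of the 3 stood at the hormone level. Against medium the difference was 0.20 (adjusted p = 0.728), and the call also ended when any of 5 of the 6 libraries was left out, with adjusted p between 0.0741 and 0.179. KLF10 had 42.99, 39.5 and 46.1 CPM with dexamethasone 0.01 µM, against 28.02, 35.1 and 42.04 CPM in its vehicle, a difference of 0.29 (95% interval −0.37 to 0.95, adjusted p = 0.635). With hydrocortisone 10 µM it had 42.8, 47.4 and 41.7 CPM, against 27.2, 31.5 and 38.1 CPM in the vehicle, a difference of 0.45 (95% interval −0.22 to 1.11, adjusted p = 0.419). With hydrocortisone 0.01 µM it had 37.4, 34.2 and 38.7 CPM, against 36.04, 47.2 and 56.5 CPM in the vehicle, a difference of −0.34 (95% interval −1.001 to 0.32, adjusted p = 1). The last 3 did not pass the threshold of 0.05.

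KLF11 had 7.53, 6.49 and 7.38 CPM with hydrocortisone 10 µM, against 3.53, 4.81 and 4.71 CPM in the vehicle (1.63-fold; log2 change 0.70, SE 0.20, adjusted p = 0.0132), with no overlap. That vehicle group was the lowest of the vehicle groups: the medium libraries had 6.29, 5.24 and 5.51 CPM, and the other vehicle libraries of day 3 had 5.23 to 7.32 CPM. The call ended with all day 3 vehicles as the reference (0.30, adjusted p = 0.155), with medium (0.33, adjusted p = 0.285) and without vehicle replicate 1 (0.58, adjusted p = 0.0958), in which ribosomal RNA took 91.4% of the counts. KLF11 had 8.99, 6.96 and 8.004 CPM with dexamethasone 1 µM, against 7.32, 7.22 and 5.65 CPM in the vehicle, which overlapped (0.25, 95% interval −0.15 to 0.64, adjusted p = 0.415). It had 8.45, 8.801 and 2.94 CPM with dexamethasone 0.01 µM, against 7.26, 6.79 and 5.91 CPM in the vehicle (0.05, 95% interval −0.35 to 0.45, adjusted p = 0.916). The low value of that hormone group belongs to replicate 3, where ribosomal RNA took 94.9% of the counts. KLF11 had 4.13, 4.4 and 4.42 CPM with hydrocortisone 0.01 µM, against 5.23, 6.42 and 5.46 CPM in the vehicle; every hormone library was lower, and the difference of −0.40 had an unadjusted p of 0.0490 and an adjusted p of 1.

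KLF6, the injury-induced activator, rose with dexamethasone 1 µM. It had 54.6, 57.6 and 59.2 CPM, against 27.3, 24.8 and 38.8 CPM in the vehicle (1.89-fold; log2 change 0.92, SE 0.22, adjusted p = 0.00303). The groups did not overlap, and the 3 hormone libraries lay close together. Against the medium libraries, at 25.3, 39.1 and 48.4 CPM, the difference was 0.60 (adjusted p = 0.0507). KLF6 had 43.5, 38.2 and 67.7 CPM with dexamethasone 0.01 µM, against 33.9, 31.9 and 38.8 CPM in the vehicle (0.51, 95% interval 0.06 to 0.97, adjusted p = 0.135), where 1 hormone library lay inside the vehicle range. The high value is 138 counts in replicate 3, the library with 94.9% ribosomal RNA, without which the difference was 0.23, adjusted p = 0.624. The comparison passed with all day 3 vehicles as the reference (0.53, adjusted p = 0.0235) and with a replicate block (0.48, adjusted p = 0.00932), and in no other alternative run. It had 40.00, 56.6 and 46.9 CPM with hydrocortisone 10 µM, against 26.1, 28.8 and 45.02 CPM in the vehicle (0.52, 95% interval 0.07 to 0.97, adjusted p = 0.129), again with overlap. KLF6 passed here against all day 3 vehicles (0.48, adjusted p = 0.0392) and without vehicle replicate 3, at 45.02 CPM (0.80, adjusted p = 0.0216). It passed in no other alternative run. It had 36.8, 36.8 and 49.7 CPM with hydrocortisone 0.01 µM, against 36.7, 37.6 and 44.5 CPM in the vehicle (0.05, 95% interval −0.40 to 0.51, adjusted p = 1).

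KLF4 was lower in 2 treatments, on few reads. With dexamethasone 0.01 µM its counts were 12, 13 and 0, against 7, 10 and 66 in the vehicle libraries. As levels these were 0.699, 0.677 and 0 CPM, against 1.18, 0.984 and 2.85 CPM (log2 change −1.58, SE 0.47, adjusted p = 0.0182). The count of 0 came from the library with 94.9% ribosomal RNA and allows up to 1.47 CPM (3 counts, counting error only), a limit above 2 of the vehicle values. Without vehicle replicate 3, the highest, the call ended (−0.92, adjusted p = 0.26), as it did with the 6 libraries fitted alone (−1.66, adjusted p = 0.381). With hydrocortisone 10 µM its counts were 7, 30 and 13, against 8, 12 and 37 in the vehicle. Its levels were 0.422, 0.936 and 0.574 CPM, against 2.17, 0.996 and 1.81 CPM (log2 change −1.32, SE 0.46, adjusted p = 0.0475), and the closest libraries of the groups nearly touched. Leaving out hormone replicate 2 or 4 or vehicle replicate 1 or 3 ended this call, with adjusted p between 0.117 and 0.179. KLF4 had 1.07, 0.8696 and 1.32 CPM with dexamethasone 1 µM, against 0.814, 0.918 and 2.09 CPM in the vehicle (−0.25, 95% interval −1.15 to 0.65, adjusted p = 0.751). It had 1.41, 1.07 and 1.82 CPM with hydrocortisone 0.01 µM, against 1.502, 1.39 and 1.72 CPM in the vehicle (−0.10, 95% interval −0.98 to 0.78, adjusted p = 1), and both of these overlapped.

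KLF2, the endothelial and macrophage regulator, passed in none of the 4 treatments. It had 3.03, 3.48 and 2.85 CPM with dexamethasone 1 µM, against 2.77, 2.09 and 5.6 CPM in the vehicle (−0.16, 95% interval −0.99 to 0.68, adjusted p = 0.833). It had 2.21, 1.51 and 5.89 CPM with dexamethasone 0.01 µM, against 3.55, 2.66 and 5.44 CPM in the vehicle (−0.38, 95% interval −1.25 to 0.48, adjusted p = 0.631). The 5.89 CPM with dexamethasone 0.01 µM is 12 counts in the library with 94.9% ribosomal RNA, without which the difference was −1.07, adjusted p = 0.11. KLF2 had 3.13, 2.901 and 1.99 CPM with hydrocortisone 10 µM, against 2.72, 2.32 and 3.73 CPM in the vehicle (−0.14, 95% interval −0.98 to 0.71, adjusted p = 0.888). All 3 overlapped, as did hydrocortisone 0.01 µM, with 5.32, 3.497 and 4.56 CPM against 3.89, 4.49 and 4.81 CPM in the vehicle (0.02, 95% interval −0.81 to 0.85, adjusted p = 1). The intervals are wide: edgeR's gene-wise coefficient of variation between libraries was 31.4% for KLF2, beside a median of 8.4% over all genes tested.

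**Figure D2:**
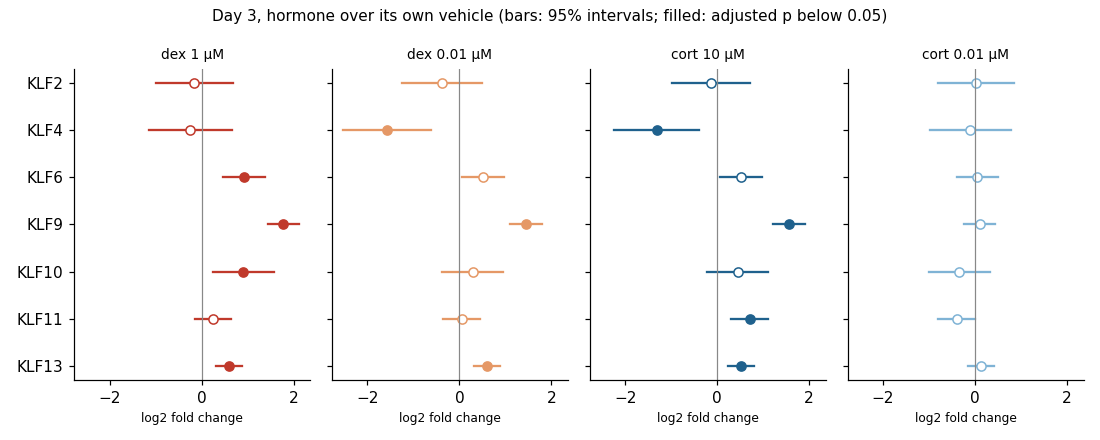
Log2 change of each member between a hormone group and its own vehicle on day 3 (horizontal axis, log2 units), with 95% intervals from the fit over all 43 libraries and filled points past an adjusted p of 0.05. KLF9 lies at 1.78, 1.45 and 1.56 in the 3 treatments where it passed and at 0.11 with hydrocortisone 0.01 µM, where the interval spans 0.

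The dose of hydrocortisone separated KLF9 and KLF11. The vehicle-corrected difference between 10 and 0.01 µM was 1.45 (95% interval 0.97 to 1.93) for KLF9 (adjusted p = 3.84e-05) and 1.11 (95% interval 0.54 to 1.67) for KLF11 (adjusted p = 0.0131), where 4.09% of all genes passed. For KLF11 this joins the higher values at 10 µM to the lower values at 0.01 µM, and it ended without replicate 1 of the 10 µM vehicle (0.98, adjusted p = 0.0541). The vehicles also differed, with KLF11 means of 4.35 ± 0.711 CPM for 10 µM and 5.70 ± 0.632 CPM for 0.01 µM (SD, n = 3 each). KLF13 had 0.37 (95% interval −0.03 to 0.77, adjusted p = 0.362) and KLF4 −1.22 (95% interval −2.49 to 0.05, adjusted p = 0.343). Between dexamethasone 1 and 0.01 µM, 0 of 7 members passed in edgeR or in DESeq2 and 1, KLF4, had an unadjusted p below 0.05 (1.34, adjusted p = 0.758), where 0.0476% of all genes passed. KLF9 differed between these doses by 0.33 (95% interval −0.15 to 0.81), KLF13 by −0.02 (95% interval −0.41 to 0.38), KLF6 by 0.40 (95% interval −0.24 to 1.05) and KLF10 by 0.62 (95% interval −0.32 to 1.55).

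The hormones shared 1 dose, 0.01 µM, so 1 pair was compared. Relative to hydrocortisone, dexamethasone is fluorinated and methylated, and ring A has one further double bond. On day 3 the vehicle-corrected difference of dexamethasone over hydrocortisone was 1.34 (95% interval 0.86 to 1.82) for KLF9 (adjusted p = 0.000141), the 1 member that passed, where 4.98% of all genes passed. KLF13 had 0.47 (95% interval 0.07 to 0.87, adjusted p = 0.197), KLF11 0.45 (95% interval −0.11 to 1.02, adjusted p = 0.448) and KLF6 0.46 (95% interval −0.18 to 1.10, adjusted p = 0.516). KLF10 had 0.63 (95% interval −0.31 to 1.56, adjusted p = 0.549), KLF2 −0.40 (95% interval −1.60 to 0.79, adjusted p = 0.81) and KLF4 −1.48 (95% interval −2.78 to −0.19, adjusted p = 0.212). These intervals do not show that the hormones act alike on those genes. Without dexamethasone replicate 3, KLF11 passed as well (0.78, adjusted p = 0.0276). At unmatched doses KLF9 stood at 11.4 ± 2.21 CPM with dexamethasone 1 µM and 10.2 ± 0.164 CPM with hydrocortisone 10 µM (SD, n = 3 each).

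On day 6, 3 days after the hormone was removed, KLF9 was still raised after dexamethasone 1 µM. It had 6.31, 6.54 and 5.99 CPM, against 3.88, 3.37, 2.14 and 2.47 CPM in the 4 vehicle libraries of that day (dexamethasone 1 and 0.01 µM, hydrocortisone 10 and 0.01 µM vehicles in this order), which serve all treatments of day 6. Every hormone library was above every vehicle library (2.17-fold; log2 change 1.12, SE 0.15, adjusted p = 7.09e-07). Against the single vehicle library of its own dose the difference was 0.69 (adjusted p = 0.11). KLF13 had 10.3, 8.97 and 10.6 CPM, against 8.09, 7.59, 7.49 and 5.24 CPM in the same vehicle libraries, without overlap (log2 change 0.51, SE 0.13, adjusted p = 0.00616). Its call ended without the hydrocortisone 0.01 µM vehicle library (0.37, adjusted p = 0.1). KLF6 had 40.4, 40.5 and 38.4 CPM, against 24.9, 26.9, 24.2 and 26.1 CPM (log2 change 0.64, SE 0.20, adjusted p = 0.0439); these groups did not overlap either, yet the call ended when any of the 7 libraries was left out, with adjusted p between 0.0536 and 0.116. So 3 of 7 members passed after dexamethasone 1 µM, all higher, where 10.2% of all genes passed and 5.13% were higher. For KLF6 these day 6 hormone libraries lay inside the range of the day 3 vehicles, 24.8 to 45.0 CPM. KLF10 had 44.1, 31.3 and 28.3 CPM, against 18.3, 23.3, 17.9 and 21.8 CPM in the vehicles (0.78, 95% interval 0.16 to 1.39, adjusted p = 0.103), and KLF11 had 8.62, 6.79 and 6.28 CPM, against 6.798, 5.22, 5.55 and 5.01 CPM (0.37, 95% interval −0.004 to 0.74, adjusted p = 0.229).

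After the other treatments 0 members passed on day 6 in edgeR or in DESeq2. KLF9 had 2.996, 3.32 and 2.54 CPM after dexamethasone 0.01 µM, within the range of the vehicles, a difference of 0.03 (95% interval −0.28 to 0.35), where 0.0833% of all genes passed and 0 members had an unadjusted p below 0.05. After hydrocortisone 10 µM it had 3.92, 4.79 and 3.26 CPM, a difference of 0.47 (95% interval 0.15 to 0.78, adjusted p = 0.167) with overlap, where 0.892% of all genes passed and 1 member, KLF9, had an unadjusted p below 0.05. Without the libraries of over 75% ribosomal RNA this difference passed (0.62, adjusted p = 0.046). After hydrocortisone 0.01 µM KLF9 had 3.44, 3.29 and 3.15 CPM. There, 4 members had an unadjusted p below 0.05 and none passed after adjustment, where 0.0892% of all genes passed: KLF10 0.92 (95% interval 0.31 to 1.53, adjusted p = 0.261), KLF2 0.91 (95% interval 0.12 to 1.69, adjusted p = 0.418), KLF4 0.96 (95% interval 0.12 to 1.80, adjusted p = 0.424) and KLF6 0.57 (95% interval 0.15 to 0.99, adjusted p = 0.331). The KLF10 libraries behind this had 15.9, 51.8 and 46.9 CPM, against 18.3, 23.3, 17.9 and 21.8 CPM in the vehicles, with 1 hormone library below all vehicles and 2 above them. The same 4 members were lower in the vehicles of day 6 than in those of day 3, each with an unadjusted p below 0.05. With hydrocortisone 0.01 µM their means on day 3 and day 6 were 4.46 and 4.25 CPM for KLF2 and 1.44 and 1.49 CPM for KLF4. For KLF6 they were 41.1 and 37.7 CPM, and for KLF10 36.8 and 38.2 CPM. Between the doses of dexamethasone on day 6, 1 member passed, KLF9 at 1.09 (95% interval 0.75 to 1.43, adjusted p = 1.78e-05), where 3.14% of all genes passed. Between the doses of hydrocortisone 0 members passed in edgeR or in DESeq2 and 1, KLF2, had an unadjusted p below 0.05 (−1.08, 95% interval −1.92 to −0.24, adjusted p = 0.208), where 1.67% of all genes passed.

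The hormone effect on day 6 was also set against the effect on day 3, each relative to all vehicles of its day. These differences use the same vehicle libraries for all 4 treatments. The KLF9 effect was smaller on day 6 after dexamethasone 0.01 µM, with a difference of −1.54 (95% interval −1.96 to −1.13, adjusted p = 5.01e-07), where 6.55% of all genes passed. It was smaller after hydrocortisone 10 µM as well, with a difference of −1.15 (95% interval −1.56 to −0.74, adjusted p = 0.0001), where 6.97% of all genes passed. After dexamethasone 1 µM the change was −0.66 (95% interval −1.07 to −0.25, adjusted p = 0.0928), where 1.68% of all genes passed; without the hydrocortisone 10 µM vehicle library of day 6 it passed (−0.80, adjusted p = 0.0328). After hydrocortisone 10 µM KLF4 had 1.47 (95% interval 0.36 to 2.59, adjusted p = 0.102), and it passed in DESeq2 (1.48, adjusted p = 0.0442). After hydrocortisone 0.01 µM 0 members passed in edgeR or in DESeq2 and 2, KLF10 and KLF11, had an unadjusted p below 0.05, where 0.00595% of all genes passed.

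**Figure D3:**
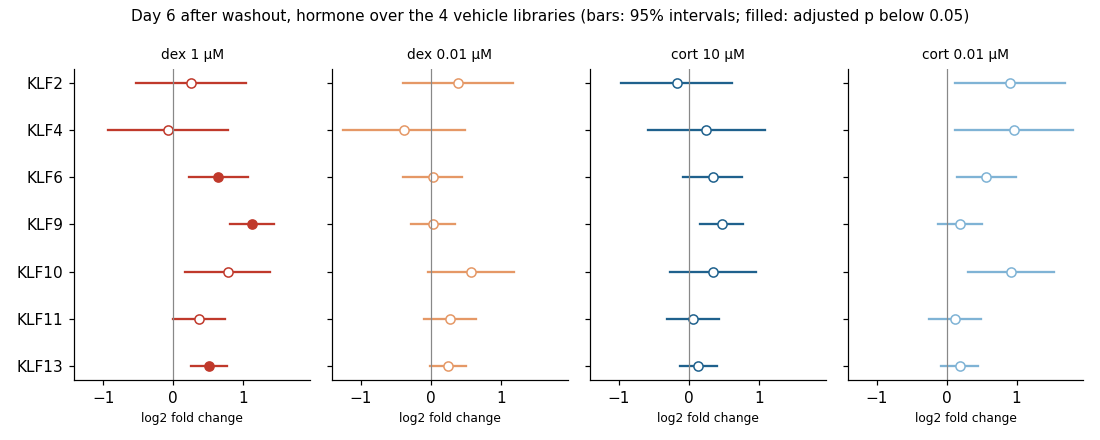
Log2 change of each member relative to vehicles on day 6 (horizontal axis, log2 units), with 95% intervals from the same fit and filled points past an adjusted p of 0.05. After dexamethasone 1 µM KLF9 lies at 1.12, KLF6 at 0.64 and KLF13 at 0.51, while KLF9 lies at 0.03 after dexamethasone 0.01 µM.

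Vehicles were also set against medium. Averaged over the 4 vehicles, 0 of 7 members differed from medium on day 3 in edgeR or in DESeq2, and 0 had an unadjusted p below 0.05, where 0% of all genes passed. Of the 7, KLF10 had the largest difference, −0.43 (95% interval −0.93 to 0.08, adjusted p = 0.952). Medium libraries scattered widely for KLF10 and KLF6, with replicate 1 lowest in both. Between the vehicles of day 6 and those of day 3, 0 members passed in edgeR or in DESeq2 and 4, KLF2, KLF4, KLF6 and KLF10, had an unadjusted p below 0.05, where 0.505% of all genes passed. KLF10 had 17.9 to 23.3 CPM in the day 6 vehicles, against 21.4 to 56.5 CPM in those of day 3 (−0.80, 95% interval −1.29 to −0.31, adjusted p = 0.145). KLF6 had 24.2 to 26.9 CPM, against 24.8 to 45.0 CPM (−0.43, 95% interval −0.76 to −0.10, adjusted p = 0.293), KLF4 −0.98 (95% interval −1.66 to −0.31, adjusted p = 0.209) and KLF2 −0.68 (95% interval −1.30 to −0.06, adjusted p = 0.396).

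The members were also compared by their group means, as a description over 17 groups that hold the same libraries as the contrasts above. KLF6 and KLF10 had the highest correlation of group mean log2 CPM (Pearson r = 0.904), followed by KLF9 and KLF13 (r = 0.884), and KLF4 with KLF9 the lowest (r = −0.33). Among 11660 genes whose log2 CPM averaged 1 or more, those most like KLF9 were PER1, a circadian repressor (r = 0.979), TSC22D3, a glucocorticoid-induced anti-inflammatory gene (r = 0.968), and NPC1, a lysosomal cholesterol transporter (r = 0.963). PER1 had a log2 change of 2.40 with dexamethasone 1 µM on day 3. Most like KLF13 were LAMA5, a laminin chain (r = 0.951), ADAMTS7, a metalloprotease (r = 0.945), and CSPG4, a pericyte proteoglycan (r = 0.941). Most like KLF6 were the phosphatase gene DUSP1 (r = 0.951), the helix-loop-helix inhibitor ID1 (r = 0.951) and the mRNA decay factor ZFP36 (r = 0.940). KLF10 had ZFP36 (r = 0.950), the TGF-beta inhibitor SMAD7 (r = 0.935) and ID1 (r = 0.923). KLF2 had PPP1R15A, a stress-induced phosphatase subunit (r = 0.908), MIR23AHG (r = 0.876) and the polyamine enzyme gene SAT1 (r = 0.868). KLF4 had LINC00511 (r = 0.870) and the early response gene IER3 (r = 0.811), and KLF11 had TCEAL4 (r = 0.821), ZNF16 (r = 0.807) and TXNDC11 (r = 0.781).

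Within groups, where treatment is the same for all libraries, KLF2, KLF6 and KLF10 varied together while KLF9 and KLF13 did not. Over group means KLF2 had r = 0.376 with KLF6 and r = 0.578 with KLF10. Over the 39 libraries of the 13 groups of 3, deviations from the group mean correlated at r = 0.721 for KLF2 with KLF6, 0.623 for KLF6 with KLF10 and 0.569 for KLF2 with KLF10. KLF6 and KLF10 were highest in the same library in 11 of the 13 groups. The library with 94.9% ribosomal RNA deviated by 1.08 for KLF2, on 12 counts, and by 0.49 for KLF6. KLF11 went against KLF2 (r = −0.512) and KLF6 (r = −0.492). KLF9 with KLF13 had r = −0.138, and KLF2 with KLF4 had r = 0.011, in which the library without a KLF4 read lay farthest out. The ribosomal RNA share moved with some members within groups: its correlation was −0.505 for KLF11, −0.457 for KLF4, −0.319 for KLF10 and −0.281 for KLF13, against 0.196 for KLF2, 0.155 for KLF9 and 0.061 for KLF6. These libraries share their scaling and depth, and no test was made of these values.

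**Figure D4:**
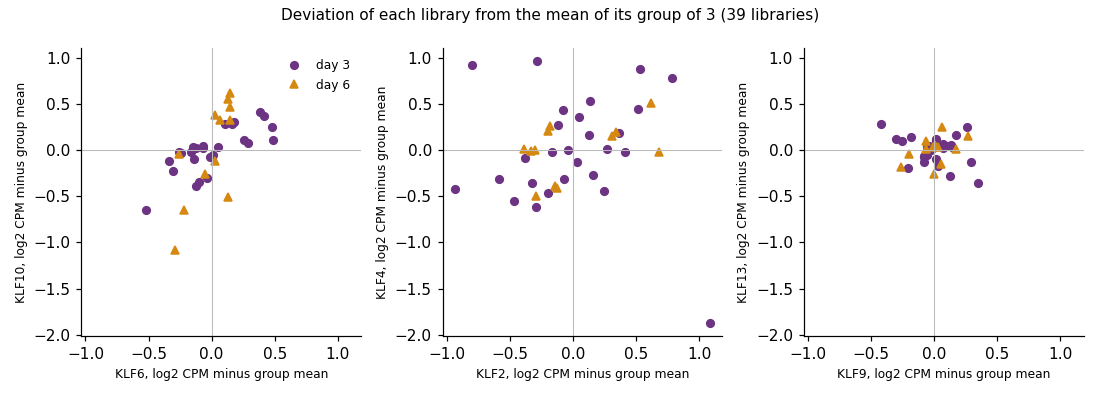
Deviation of each library from its group mean (log2 CPM) for pairs of members, 1 point per library of the 13 groups of 3, circles for day 3 and triangles for day 6. In the middle panel the lowest KLF4 point is the library with a count of 0. KLF6 and KLF10 deviate together (r = 0.623), and KLF9 and KLF13 show no such trend (r = −0.138).

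The rest of the family and its partners were read from lists. Of 11 other Kruppel-like factor genes, 6 were in the table and tested, and 3 fell and 0 rose with dexamethasone 1 µM on day 3, where 12.3% of all genes were lower; their median log2 change was −0.36, beside 0.02 over all genes. KLF15, a glucocorticoid receptor target that rises in several other tissues, had 0.334 ± 0.192 CPM with dexamethasone 1 µM, against 0.988 ± 0.0921 CPM in the vehicle (SD, n = 3 each; log2 change −1.59, adjusted p = 0.00989), and on day 6 it was again lower than in vehicles (log2 change −1.59, adjusted p = 0.00912). The median of KLF15 over all libraries was 0.815 CPM, below the 0.996 CPM of KLF4, so both changes rest on few reads. With dexamethasone 1 µM on day 3 KLF3, a repressor that recruits CtBP, fell (log2 change −0.43, adjusted p = 0.00815). So did KLF12, another CtBP-recruiting repressor (log2 change −0.39, adjusted p = 0.0127). KLF12 also fell with hydrocortisone 10 µM (log2 change −0.37, adjusted p = 0.0314), and no listed Kruppel-like factor gene passed with dexamethasone 0.01 µM or hydrocortisone 0.01 µM. KLF16 and KLF12 were the most abundant per kilobase of these, with medians of 3.91 and 3.29 CPM per kb over all libraries. Of 9 SP genes, the relatives that bind the same GC boxes, 6 were tested and 0 passed in any of the 4 day 3 comparisons (median log2 change −0.04 with dexamethasone 1 µM); the most abundant, SP1 and SP3, had medians of 8.08 and 7.70 CPM per kb.

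Early genes of TGF-beta signalling, the pathway that induces KLF10 and KLF11, rose with dexamethasone 1 µM in 7 of 10 cases and fell in 0, where 10.3% of all genes were higher. Their median log2 change was 0.75, beside 0.02 over all genes. SMAD6, an inhibitor of the pathway, had a log2 change of 1.34, adjusted p = 0.000382. ID3, a helix-loop-helix inhibitor, had 1.33, adjusted p = 7.32e-05, and JUNB, an AP-1 subunit, had 1.51, adjusted p = 0.00224. The TGF-beta inhibitor SMAD7 did not pass (0.39, adjusted p = 0.196). Whether TGF-beta signalling itself changed was not tested. With dexamethasone 0.01 µM and with hydrocortisone 10 µM 2 of 10 rose, in both cases with ID3 among them, where 6.15% and 5.58% of all genes were higher, and with hydrocortisone 0.01 µM 0 did. Between the dexamethasone doses, vehicle-corrected, 0 of 10 passed, so these counts do not show a difference between the doses. On day 6 after dexamethasone 1 µM 3 of 10 were higher, among them ID1 (1.30, adjusted p = 0.00685) and ID3 (1.14, adjusted p = 0.000429), where 5.13% of all genes were higher. In the vehicles that serve as its reference, 3 of the 10 were lower on day 6 than on day 3 and 0 higher, with a median log2 change of −0.59, where 0.505% of all genes passed.

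Of the ERK5 and MEF2 genes upstream of KLF2 and KLF4, 2 of 6 tested rose with dexamethasone 1 µM and 0 fell, with a median log2 change of 0.24 over the 6, where 10.3% of all genes were higher. They were MAP3K2, a kinase at the head of the cascade (0.65, adjusted p = 1.44e-06), and MAPK7, which encodes ERK5 itself (0.48, adjusted p = 0.00241). With dexamethasone 0.01 µM and with hydrocortisone 10 µM MAP3K2 rose and MEF2D fell, 1 of 6 each way, where 6.15% and 5.58% of all genes were higher and 7.84% and 7.5% lower. Of 9 corepressor and coactivator genes, 1 rose and 1 fell with dexamethasone 1 µM: the acetyltransferase EP300 rose (0.52, adjusted p = 0.00187) and the deacetylase HDAC2 fell (−0.45, adjusted p = 2.56e-05), with a median of 0.04 over the 9; over all genes 10.3% were higher and 12.3% lower, shares close to 1 of 9. SIN3A, the partner of KLF9, KLF10, KLF11 and KLF13, had a log2 change of 0.05, adjusted p = 0.721. Of 10 genes reported as targets of KLF2, KLF4 or KLF6, 9 were tested, and with dexamethasone 1 µM 4 rose and 1 fell. The cell cycle inhibitor CDKN1A rose (0.96, adjusted p = 1.96e-09), as did the sphingosine receptor S1PR1 (0.77, adjusted p = 2.46e-05), the smooth muscle actin ACTA2 (1.77, adjusted p = 0.00275, at 0.937 ± 0.391 CPM against 0.262 ± 0.0885 CPM in the vehicle) and the receptor TGFBR1 (0.41, adjusted p = 9.87e-05), and MYOCD, a smooth muscle coactivator that KLF4 represses, fell (−1.95, adjusted p = 7.09e-11). This list's median log2 change was 0.25; over all genes 10.3% were higher and 12.3% lower, and the 1 of 9 that fell is near that share.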

How the data were processed

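The 43 libraries were made from total RNA with a stranded kit that removes ribosomal RNA, per the labels' protocols. The authors deposited 1 table of whole-number read counts per gene; FastQC, STAR, featureCounts and Subread with GRCh38 are named in the submitters' processing notes, without versions. The depth per library, 7638840 to 24426643 counts, includes ribosomal RNA. Gene names came from the name table given (19978 genes) or GENCODE release 29 (70), and 4 genes kept an ID only.

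The deposited counts were tested with edgeR 4.0.16 in R 4.3.3: filterByExpr (minimum count 10, minimum total 15), TMM, robust glmQLFit without the legacy option and glmQLFTest. One fit of 17 groups had 26 residual degrees of freedom and gave 19 contrasts, so a group with 1 library borrows its spread from the rest. Adjusted p-values are Benjamini-Hochberg over the 16816 genes tested, with a threshold of 0.05. Standard errors and 95% intervals were derived from the F statistics. Log2 CPM used a prior count of 2, and folds are from the fit. The fitting option was settled after member results of the legacy fit had been seen, and that fit is kept as an alternative. The members, the gene lists and the markers were chosen with earlier results of these data known. Genes named beyond the members are the 3 with the highest correlation to each member, TSC22D3 and FKBP5, and up to 4 genes per list and comparison by smallest p, with the most abundant listed family genes; SP1, SP3 and SIN3A were added after their values were seen. Some genes that this rule names are not reported here. Alternatives were DESeq2 1.42.0, other size factors, no filter, other vehicles or medium as reference, a replicate block, left-out genes and left-out libraries. The code was tested on simulated data. Deviations of same-numbered hydrocortisone 10 µM libraries of day 6 and day 3 correlated at 0.234, 0.179 and 0.202. Same-numbered libraries of the dexamethasone doses on day 6 had 0.194 and 0.312. These values do not settle whether replicate numbers pair libraries. The replicate block left the member count of the hydrocortisone 10 µM washout change at 1. Library pairs of 1 group (39) all differed by more than sampling noise, with a chi-square per gene of 3.15 to 14.98.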

Additional observations from a re-analysis of the deposited data

Results flagged for a closer look

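The following differences between hormone effects passed the test of the difference itself. KLF9 differed between hydrocortisone 10 and 0.01 µM on day 3 by 1.45 on the log2 scale, and KLF11 by 1.11. The KLF9 difference passed in 19 of 19 alternative runs and that of KLF11 in 18 of 19. The KLF11 call was lost without replicate 1 of the 10 µM vehicle (0.98, adjusted p = 0.0541). None of the 19 runs exchanged the vehicles for another reference. That exchange had ended the KLF11 call of hydrocortisone 10 µM over its own vehicle, so its bearing on the dose difference was not tested. Between dexamethasone and hydrocortisone at 0.01 µM on day 3, KLF9 differed by 1.34. On day 6, KLF9 differed between dexamethasone 1 and 0.01 µM by 1.09. The KLF9 effect on day 6 differed from that on day 3 by −1.54 after dexamethasone 0.01 µM and by −1.15 after hydrocortisone 10 µM.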

How the results depend on the processing

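Of 20 member changes past the threshold, 0 changed sign and 9 passed in every alternative run; 309 of their 349 alternative values passed. Counts of members past the threshold that moved by over 1.5 times were these. After hydrocortisone 10 µM the washout change had 2 members, against 1, in the legacy fit (run first, and made an alternative after its member results were seen), in DESeq2, without ribosomal RNA genes and without the libraries above 75% ribosomal RNA. Leaving out those libraries gave 2 for dexamethasone over hydrocortisone at 0.01 µM, against 1, and 1 for hydrocortisone 10 µM on day 6, against 0. With medium as the reference dexamethasone 1 µM on day 3 had 2, against 4. With the vehicle library of its own dose dexamethasone 1 µM on day 6 had 0, against 3. With its own 6 libraries dexamethasone 0.01 µM had 1, against 3. The replicate block gave 2 for the dexamethasone doses on day 6, against 1, and 1 for vehicles of day 6 over day 3, against 0 (KLF6 −0.48, adjusted p = 0.006). The replicate numbers need not pair libraries (pair correlations −0.231 to 0.312). The block also moved KLF10 with dexamethasone 1 µM to an adjusted p of 0.0655 and KLF6 with dexamethasone 0.01 µM to 0.00932. Leaving out 1 library at a time gave 1 to 4 members for hydrocortisone 10 µM on day 3, 1 to 2 for its dose difference, its washout change, the 0.01 µM pair and dexamethasone 1 µM on day 6, 0 to 1 for the washout change of dexamethasone 1 µM, 3 to 4 for dexamethasone 1 µM on day 3 and 2 to 3 for dexamethasone 0.01 µM. Over all genes, dexamethasone 0.01 µM on day 3 had 2353 calls, 664 with its own 6 libraries, 3633 with all vehicles and 1522 without the libraries above 75% ribosomal RNA. Hydrocortisone 10 µM on day 3 had 2199, 1465 with its own 6 libraries, 4066 with all vehicles and 1393 without its replicate 4. Dexamethasone 1 µM on day 6 had 1708, 793 with its own vehicle and 1053 to 1725 with 1 library left out. Hydrocortisone 10 µM on day 6 had 150, between 3 and 256 in the alternatives. No scaling moved the median over all genes by 0.1. The limits are the few KLF4 and KLF2 reads and the single day 6 vehicle libraries.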
